A study of Homo sapiens with 2 samples.

Results

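The proteasome is the protein complex that degrades proteins tagged with ubiquitin. Its 20S core is a barrel of alpha and beta subunits that holds the proteolytic sites, and its 19S regulatory particle binds ubiquitin, removes it and unfolds the substrate with a ring of ATPases. The genes of its subunits lie scattered over the genome, are used in nearly all cells, and are raised together by the transcription factor NFE2L1 when proteasome activity falls. The members described here were the 34 constitutive subunit genes PSMA1 to PSMA7, PSMB1 to PSMB7, PSMC1 to PSMC6 and PSMD1 to PSMD14, taken by name from GENCODE 44. They were 34 of the 20033 protein-coding genes on chromosomes 1 to 22, X and Y. The list includes PSMD5, PSMD9 and PSMD10, which serve as assembly chaperones of the regulatory particle.

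The samples were 2 replicates of the J.gamma1 cell line, a Jurkat derivative that lacks phospholipase C gamma 1. Jurkat is an established human line of T-cell leukemia, and the labels call these cells T-ALL cells. Whether the cells carry T-cell markers was not checked, since these files hold no RNA values. The chromatin was profiled by CUT&Tag, in which an antibody directs a transposase to cut DNA near its target. The antibody was against NUDT21, the subunit of the cleavage factor that reads UGUA words in pre-mRNA and takes part in the choice of polyadenylation sites. Both samples formed 1 group with no treatment and no second line, and no control sample was analysed here. With 1 group, no difference could be tested, so all comparisons below are descriptions of these 2 peak lists.

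Each list gave peaks of NUDT21 signal with a fold, which is the enrichment of fragments at the summit over a background level. What that background was made from is not known here, as the methods describe no control library. The values of replicate 1 carry a scaling (0.921) of the kind MACS applies when it is given one. The background levels solved below were often close to whole numbers in replicate 1 (20 at PSMA5, 16 at PSMA2). In replicate 2 they often repeated the same value (4.46 at PSMC1, PSMD5 and PSMD13). Whether both lists were called against 1 shared control is not known, so their folds may not be independent. On the main chromosomes, replicate 1 had 92722 peaks and replicate 2 had 66671. A gene was counted as holding a promoter peak where the nearest edge of a peak lay within 3000 bp of any of its transcript starts. The strongest promoter peak was the peak with the highest fold. Its fold percentile was the percent of peaks of the same list with a lower fold. Coordinates are on hg38. The expression of the genes in these samples was not analysed here, and its part in the results was not tested.

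Proteasome subunit genes held NUDT21 promoter peaks more often than protein-coding genes at large. In replicate 1, 32 of 34 members (94.1%) held a promoter peak, beside 69.8% of protein-coding genes. In replicate 2, 30 of 34 members (88.2%) held one, beside 57.9%. The same 30 members held a promoter peak in both replicates (88.2%), beside 57.0% of protein-coding genes. PSMD10 and PSMD14 held none in either replicate, and PSMA2 and PSMD6 held one in replicate 1 alone. The alpha, beta and ATPase classes were nearly complete, with 6 of 7, 7 of 7 and 6 of 6 genes in both replicates. The non-ATPase class of the regulatory particle had 11 of 14.

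The promoters shown first are those at the ends of the range of fold percentiles and those without a peak, since the results turn on them. They are the 250 bases before the RefSeq start (GRCh38.p14), 5′ to 3′ on the gene's strand, and capitals mark matches, on either strand, to the 10 words named with the promoter motifs near the end (NF-Y, SP/KLF, antioxidant response element, E-box and TGTA words occur here). A match that runs past the start is not marked, such as CCGGAAG (ETS) in PSMD14, which begins 4 bases before the start. RefSeq held promoters for 29 of the 34 members. PSMA7, PSMB1, PSMB6, PSMB7 and PSMD4 had no entry. PSMB3 had the second highest mean fold percentile, PSMA5 and PSMA4 had the lowest of the members with a peak in both lists, and PSMD14 and PSMD10, added after their values were seen, had no peak.
PSMB3, chr17:38752491-38752740, plus strand: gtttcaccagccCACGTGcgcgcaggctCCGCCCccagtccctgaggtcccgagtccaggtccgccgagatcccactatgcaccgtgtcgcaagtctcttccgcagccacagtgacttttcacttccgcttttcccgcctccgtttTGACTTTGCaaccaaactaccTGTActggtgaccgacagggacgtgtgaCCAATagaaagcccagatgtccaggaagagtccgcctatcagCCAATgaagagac
PSMA5, chr1:109426449-109426698, minus strand: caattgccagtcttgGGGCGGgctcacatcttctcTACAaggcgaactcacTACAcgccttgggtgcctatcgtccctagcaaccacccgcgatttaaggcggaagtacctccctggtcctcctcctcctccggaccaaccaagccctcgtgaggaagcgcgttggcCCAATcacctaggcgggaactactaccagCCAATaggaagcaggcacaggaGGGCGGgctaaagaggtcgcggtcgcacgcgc
PSMA4, chr15:78540155-78540404, plus strand: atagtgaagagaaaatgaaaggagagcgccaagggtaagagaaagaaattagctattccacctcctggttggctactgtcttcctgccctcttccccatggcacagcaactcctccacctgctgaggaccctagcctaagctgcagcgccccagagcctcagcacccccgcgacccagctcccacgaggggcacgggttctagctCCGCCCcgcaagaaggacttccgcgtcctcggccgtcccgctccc
PSMD14, chr2:161308175-161308424, plus strand: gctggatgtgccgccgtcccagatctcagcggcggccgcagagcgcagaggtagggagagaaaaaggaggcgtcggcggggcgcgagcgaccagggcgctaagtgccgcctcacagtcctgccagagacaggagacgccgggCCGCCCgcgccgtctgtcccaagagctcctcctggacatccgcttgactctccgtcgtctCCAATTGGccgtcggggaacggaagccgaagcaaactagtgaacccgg
PSMD10, chrX:108091543-108091792, minus strand: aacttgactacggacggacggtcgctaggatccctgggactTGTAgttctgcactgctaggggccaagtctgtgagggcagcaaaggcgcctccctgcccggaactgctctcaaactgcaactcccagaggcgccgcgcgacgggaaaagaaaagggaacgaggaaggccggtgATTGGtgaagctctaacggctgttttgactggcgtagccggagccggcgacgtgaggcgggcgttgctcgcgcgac
The shown promoters of PSMB3 and PSMA5 lay wholly inside the peak of each replicate. That of PSMA4 lay inside the peak of replicate 1, and the peak of replicate 2 covered only its part nearest to the start. The GC content of these 250 bases was 58% in PSMB3, 60.8% in both PSMA5 and PSMA4, 67.2% in PSMD14 and 62% in PSMD10. Over these 250 bases, PSMD14 and PSMD10 were richer in GC than PSMB3. From 500 bp before to 500 bp after the canonical start, GC was 57.7% in PSMB3, 56.9% in PSMD14 and 58% in PSMD10. The part of GC in the missing peaks was not tested.

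The folds of the members were in the upper part of each list. The strongest promoter peak had a median fold of 6.63 in replicate 1 (n = 32) and 5.85 in replicate 2 (n = 30). Over all protein-coding genes that held a promoter peak, the medians were 5.64 and 5.45. As fold percentiles, the member medians were 89.4 and 83.0, beside 82.4 and 77.9 over protein-coding genes. In replicate 1, 16 of 32 members were in the top 10% of the list by fold, beside 38.0% of protein-coding genes that held a promoter peak. In replicate 2 these were 11 of 30 (36.7%) and 32.6%. The gap between members and other genes was 6.94 percentile points in replicate 1 and 5.11 in replicate 2, smaller than the range among the members, which ran from 5.50 to 98.9 and from 1.53 to 98.7.

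**Figure D1:**
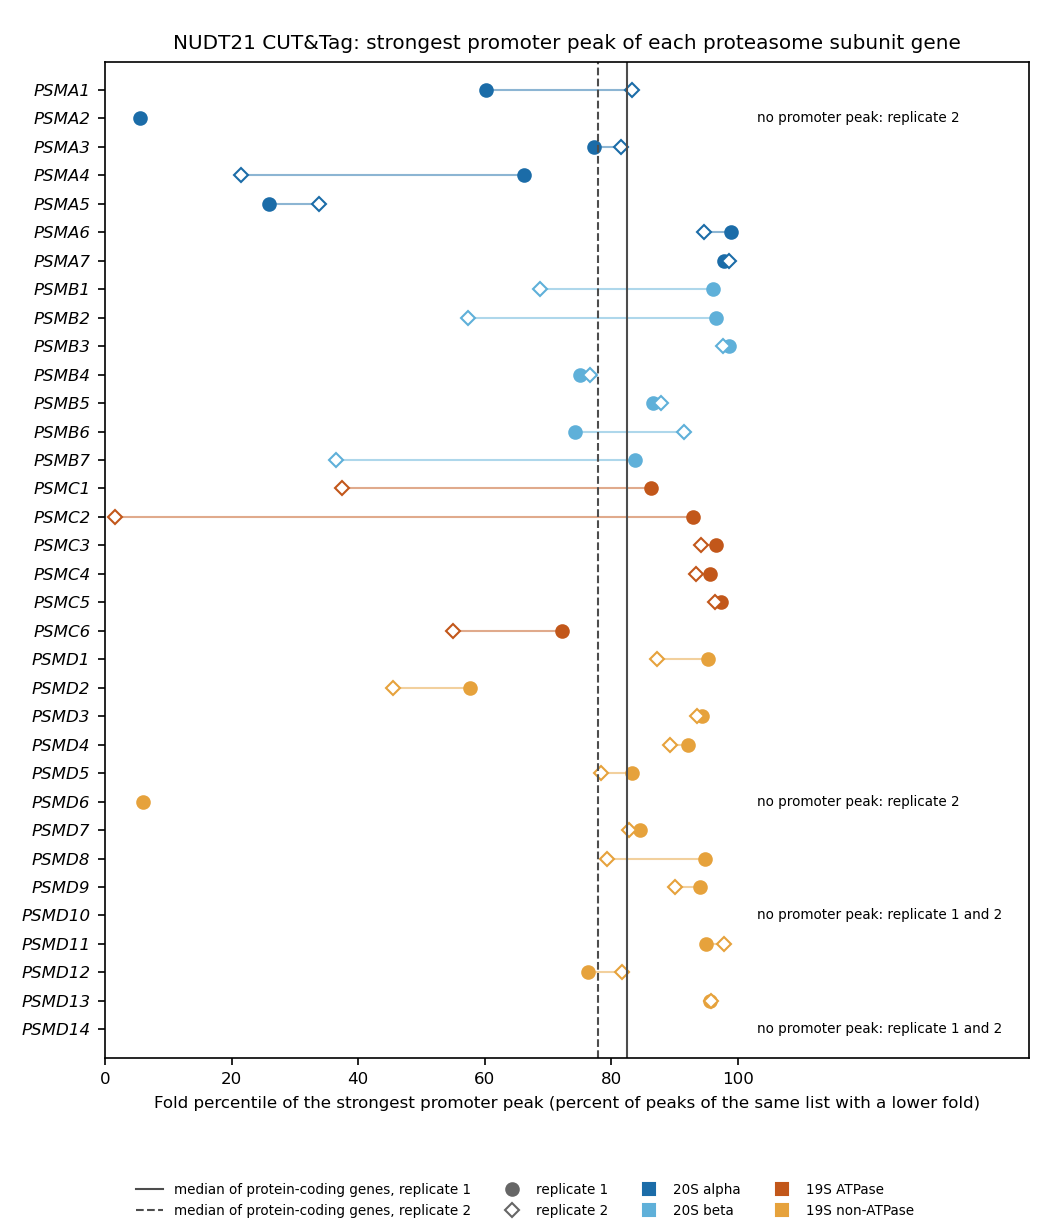
Fold percentile (x axis, percent of peaks of the same list with a lower fold) of the strongest promoter peak of each of the 34 genes (y axis), with filled circles for replicate 1, open diamonds for replicate 2, and colours for the 4 subunit classes. The vertical lines are the medians of protein-coding genes that held a promoter peak, 82.4 in replicate 1 and 77.9 in replicate 2; most members sit near or to the right of them, PSMA5 and PSMD2 are among those that sit to the left in both replicates, and PSMC2 spans almost the whole range.

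Against genes of like promoter GC, members held a promoter peak more often, and their rank by fold was above the middle in the full lists but not among the peaks of lowest p. GC content was measured from 500 bp before to 500 bp after the Ensembl canonical start, and protein-coding genes were split into 10 groups of equal size. The members had a median GC of 57.2%, lower than the 61.3% of all protein-coding genes. Occupancy rose with GC over the lower deciles, from 5.99% of genes occupied in both replicates in the lowest decile to 63.8% in the fourth. The share in the GC decile of each member averaged 61.4%, beside 88.2% of the members. Among genes of the same decile with a promoter peak, the members had a median percentile of 67.5 in replicate 1 and 60.5 in replicate 2, where 50 is the middle of the decile by construction. With each list shortened to the 10000 peaks of highest −log10 p, the mean of both replicates fell from 64.0 to 47.3, under the middle, so the direction turned. Members had a median of 8 distinct transcript starts, beside 5 over protein-coding genes, which gives their promoters a wider window. With only the canonical start of each gene, 30 of 34 members and 52.3% of protein-coding genes held a promoter peak in both replicates.

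**Figure D2:**
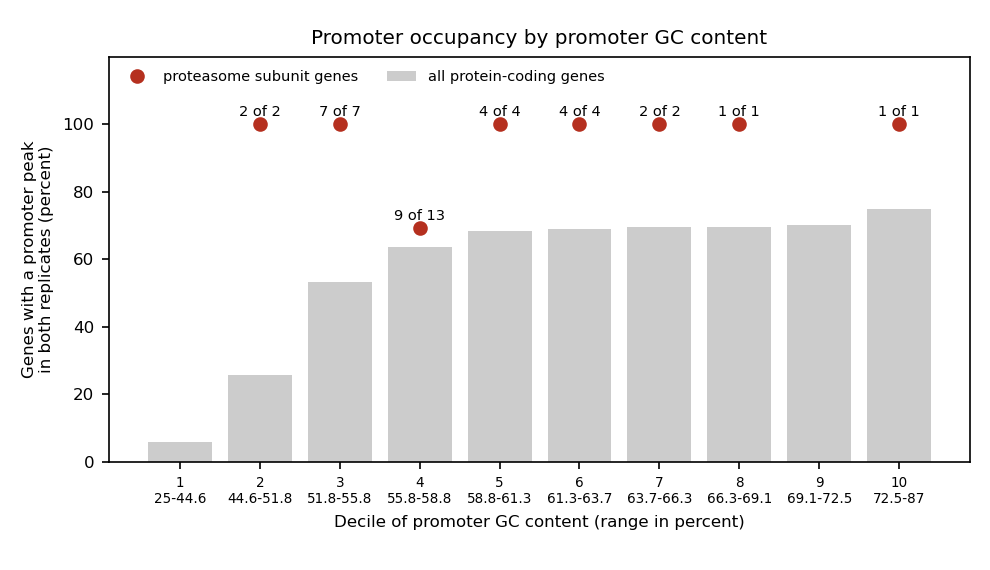
Percent of genes that held a promoter peak in both replicates (y axis) in each decile of promoter GC (x axis, with the GC range in percent), with bars for all protein-coding genes and points for the members, labelled with their counts. The members reach 100% in 7 of the 8 deciles that hold any, and the 4 members without a promoter peak in both replicates are all in the fourth decile, at 9 of 13.

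The peaks of most members lay close to a start of the gene. The summit of the strongest promoter peak was a median of 155 bp from the nearest own start in replicate 1 and 166 bp in replicate 2, beside 211 bp and 310 bp over protein-coding genes. It was within 300 bp of an own start in 26 of 32 members (81.2%) and 22 of 30 (73.3%), beside 59.0% and 49.3%. Taking instead the promoter peak nearest to the canonical start, the summit was within 300 bp of it in 31 of 32 members (96.9%) and 26 of 30 (86.7%), beside 59.9% and 48.0%. PSMC2 was the exception in replicate 1. Summits lay downstream of the nearest own start in 17 of 32 members (53.1%) and 17 of 30 (56.7%), near the 47.7% and 50.2% of protein-coding genes.

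**Figure D3:**
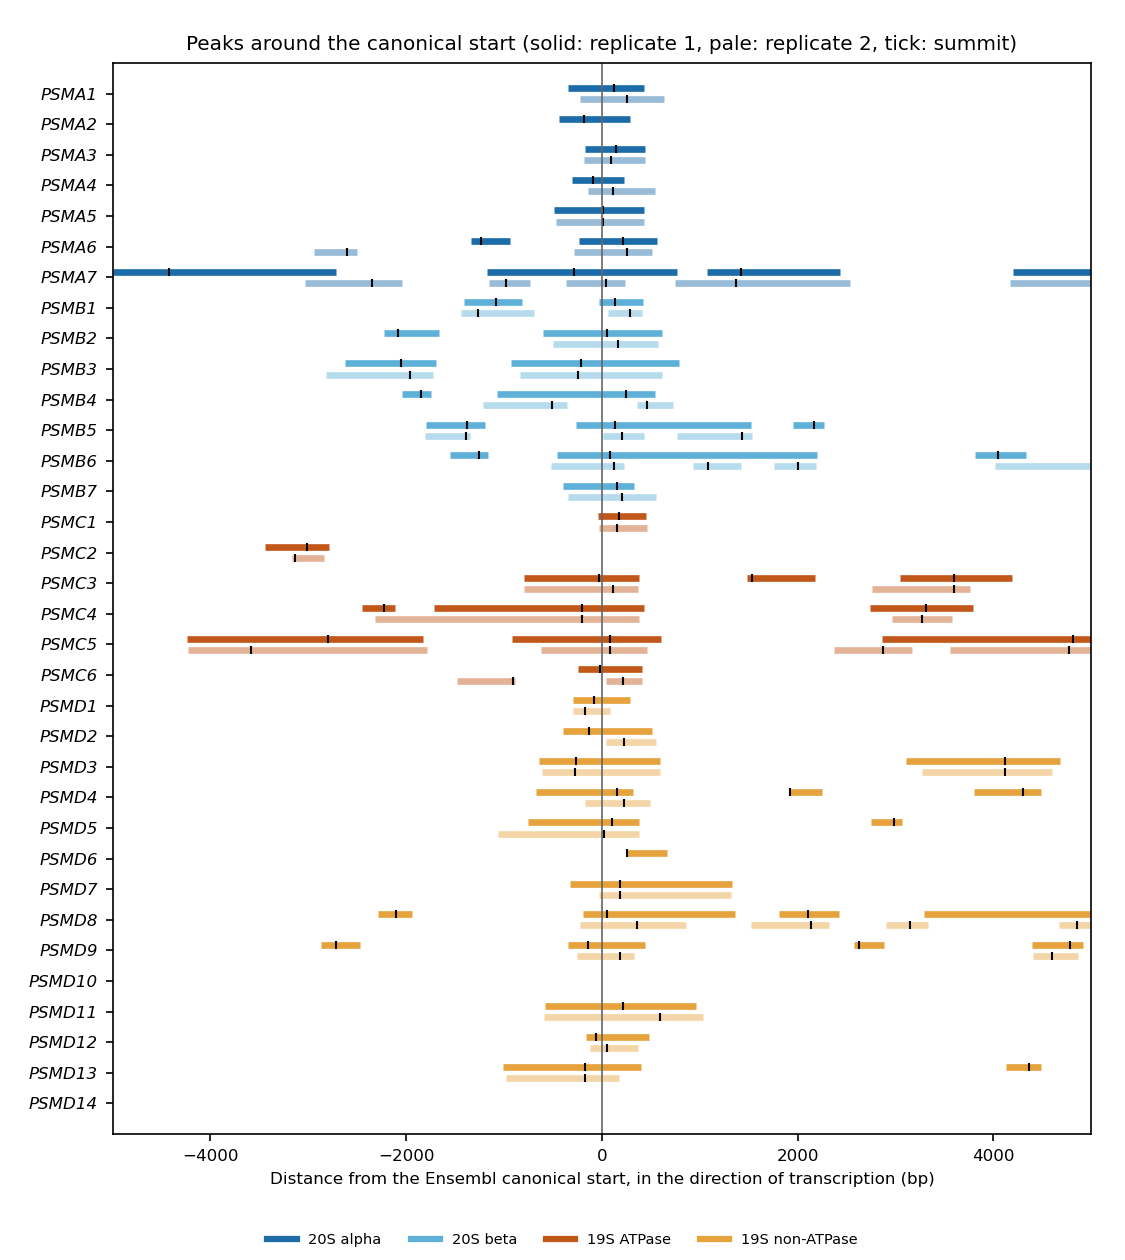
Promoter peaks of the 34 genes (y axis) by distance from the Ensembl canonical start in the direction of transcription (x axis, bp, drawn to 5000 bp either side), with solid bars for replicate 1, pale bars for replicate 2 and ticks for summits. A peak spans or lies beside the start in both replicates for most genes, the peaks of PSMC2 lie about 3000 bp upstream, and PSMD10 and PSMD14 have no bar.

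The replicates placed these peaks alike. The strongest promoter peaks of the 2 replicates overlapped in 26 of 30 members (86.7%), beside 71.1% of 11425 protein-coding genes, and the summits of overlapping peaks were a median of 66 bp apart, beside 85 bp. The order of the members by fold percentile was less steady. Spearman's rho between replicates was 0.64 over the 30 members and 0.80 over the 11425 protein-coding genes, given as a description, since the genes of a list share 1 library and its background. The member SD over 2 replicates was 0.180 percentile points in PSMD13 and 64.7 in PSMC2. This SD depends on the place in the list, since a change in fold moves the percentile less near the top. PSMA6 fell from a fold of 12.9 to 7.83 with an SD of 2.99 percentile points. PSMC1 fell from 6.07 to 3.85 with an SD of 34.6.

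The alpha subunits, which form the outer rings of the core, held both ends of the range. PSMA7 had the highest mean percentile of all members, 98.2 ± 0.633 (SD, n = 2). Its fold was 10.3 in replicate 1 and 10.8 in replicate 2, at chr20:62140965-62142315 and chr20:62140858-62142650. Both summits were in an intron, 1418 bp and 1368 bp downstream of the canonical start, and both peaks also lay within the promoter window of SS18L1, which encodes a chromatin remodelling subunit. The PSMA7 peak at the canonical start was weaker, with a fold of 7.91 and 4.16. PSMA6 had folds of 12.9 and 7.83 at chr14:35292145-35292941 and chr14:35292096-35292893, with intronic summits 220 bp and 257 bp past the canonical start. Its percentile was 96.8 ± 2.99 (SD, n = 2), and no other gene had a start in the window.

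PSMA5 and PSMA4 were the lowest of the members with a promoter peak in both replicates. PSMA5 had folds of 3.21 and 3.71, at chr1:109426015-109426938 and chr1:109426015-109426919, and a percentile of 29.8 ± 5.57 (SD, n = 2). Its summits were in the 5′ UTR, 12 bp and 7 bp from the canonical start, so the peak was weak but sat at the start in both replicates. PSMA4 had folds of 4.62 and 3.37 at chr15:78540137-78540670 and chr15:78540302-78540990, and a percentile of 43.8 ± 31.6 (SD, n = 2). The PSMA4 summit was 93 bp upstream of the canonical start in replicate 1 and 111 bp downstream, in an intron, in replicate 2.

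PSMA2 held a weak peak in 1 list. In replicate 1 its fold was 2.44 (percentile 5.50) at chr7:42931886-42932617, with the summit 187 bp upstream of the canonical start, in a promoter shared with MRPL32, which encodes a mitochondrial ribosomal protein. In replicate 2 the nearest peak was 604517 bp away. PSMA1 had folds of 4.34 and 5.88 (percentiles 60.2 and 83.3) at chr11:14519956-14520734 and chr11:14519752-14520610, and the window also held a start of an unnamed protein-coding gene model, ENSG00000256206. PSMA3 had folds of 5.20 and 5.73 (percentiles 77.3 and 81.6), with summits 144 bp and 98 bp past the canonical start.

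The catalytic beta subunits differed in where their signal was strongest. PSMB5, which carries the chymotrypsin-like site that the drug bortezomib inhibits, had folds of 6.10 and 6.38 (percentile 87.2 ± 0.873, SD, n = 2). Its summits were in a coding exon, 136 bp and 210 bp past the canonical start, at chr14:23033376-23035168 and chr14:23034469-23034889. PSMB7, which carries the trypsin-like site, had folds of 5.77 and 3.83 (percentiles 83.8 and 36.5) at chr9:124415116-124415841 and chr9:124414886-124415789, with summits in an intron, 151 bp and 209 bp past the start. The percentiles of PSMB5 were nearly the same in both lists, and those of PSMB7 were not.

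PSMB6, which carries the caspase-like site, had its strongest promoter peak downstream of the gene. The folds were 5.02 and 6.96 (percentiles 74.3 and 91.5), at chr17:4799980-4800494 and chr17:4800178-4801961, and these peaks lay beside a start of C17orf114. At its canonical start PSMB6 had a second peak, with a fold of 4.73 and 4.32 and summits 83 bp and 120 bp past the start. For PSMB6 the value of the strongest peak is therefore not that of the main promoter.

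Among the other beta subunits, PSMB3 was second of all members. Its folds were 11.8 and 9.39 (percentile 98.1 ± 0.663, SD, n = 2), at chr17:38751815-38753531 and chr17:38751909-38753356, with summits 218 bp and 239 bp upstream of the start. These peaks also lay in the window of PCGF2, which encodes a Polycomb protein. PSMB1 shared its promoter with TBP, which encodes the TATA-binding protein, and had folds of 8.75 and 4.96 (percentiles 96.1 and 68.7) at chr6:170552891-170553335 and chr6:170552892-170553247. PSMB2 had folds of 9.01 and 4.49 (percentiles 96.5 and 57.4). PSMB4 had folds of 5.08 and 5.38 (percentiles 75.05 and 76.6). All 7 beta genes held a promoter peak in both replicates, but PSMB1, PSMB2 and PSMB7 were each lower in replicate 2 by over 25 percentile points.

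The ATPases form the ring that unfolds substrates, and 3 of the 6 were high in both lists. PSMC3 had folds of 9.09 and 7.67 (percentiles 96.6 and 94.2), and PSMC4 had 8.44 and 7.40 (percentiles 95.6 and 93.4). PSMC5 had folds of 9.70 and 8.51 (percentile 96.8 ± 0.668, SD, n = 2), but in different peaks. In replicate 1 its strongest peak was at the start, chr17:63826513-63828032, with the summit 85 bp past the canonical start. In replicate 2 it was upstream, chr17:63823203-63825641, with the summit 3585 bp before the start, and the peak at the start had a fold of 8.13. Both windows also held a start of FTSJ3, which encodes a methyltransferase of ribosome synthesis.

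The other 3 ATPases varied between the lists. PSMC2 had a fold of 7.38 in replicate 1 (percentile 93.0) and 2.47 in replicate 2 (percentile 1.53), at chr7:103344198-103344852 and chr7:103344477-103344803. These peaks were 3008 bp and 3137 bp upstream of the canonical start of PSMC2, beside other starts of the gene and a start of DNAJC2, a ribosome-associated chaperone gene. No peak of either list lay nearer to the canonical start of PSMC2. PSMC1 had folds of 6.07 and 3.85 (percentiles 86.3 and 37.4), with intronic summits 174 bp and 154 bp past the start. PSMC6 had a fold of 4.92 at chr14:52720027-52720332 in replicate 1, inside the gene and 12916 bp past the canonical start. In replicate 2 its strongest peak was at the start, chr14:52707244-52707611, with a fold of 4.38, and in replicate 1 the peak at the start had a fold of 2.96.

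Among the non-ATPase subunits, PSMD11, PSMD13, PSMD3 and PSMD1 were high in both lists. PSMD13 had folds of 8.403 and 8.25 (percentile 95.7 ± 0.180, SD, n = 2) at chr11:235961-237376 and chr11:235995-237152, with both summits 171 bp upstream of the canonical start, in a promoter shared with SIRT3, a mitochondrial deacetylase gene. The lid subunit genes PSMD11 and PSMD3 had folds of 8.12 and 9.60 and of 7.80 and 7.44, and PSMD1, the large scaffold subunit, of 8.30 and 6.32. PSMD7, the partner of PSMD14 in its deubiquitinating unit, had folds of 5.84 and 5.82, and PSMD12, a lid subunit, had 5.17 and 5.75. PSMD8, also of the lid, had 8.002 and 5.57, with intronic summits 2103 bp and 2134 bp past the canonical start. At the canonical start itself PSMD8 had 6.57 and 4.49.

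PSMD4 encodes a ubiquitin receptor. Its folds of 7.15 and 6.58 (percentile 90.7 ± 2.09, SD, n = 2) were alike but came from different peaks. In replicate 1 the peak was at the start, chr1:151254058-151255051, with an intronic summit 153 bp past it. In replicate 2 it was in an intron at chr1:151265305-151266595, 11475 bp past the canonical start and beside an alternative start, and the peak at the main start had a fold of 4.49. PSMD2, the other large scaffold subunit, had its strongest peaks far from the main start as well. They had folds of 4.23 and 4.08 (percentile 51.6 ± 8.68, SD, n = 2), at chr3:184309399-184309695 and chr3:184307915-184308576, 10260 bp and 9134 bp past the canonical start. At the canonical start of PSMD2, the folds were 2.27 and 3.30 (percentiles 2.68 and 19.3), so the main promoter of PSMD2 was among the weakest of the members.

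The assembly chaperones PSMD5 and PSMD9 both had promoter peaks. PSMD5 had folds of 5.72 and 5.50 (percentiles 83.3 and 78.4), with summits 102 bp and 25 bp past the canonical start. PSMD9 had folds of 7.74 and 6.73 (percentiles 94.1 and 90.04), with intronic summits 11139 bp and 11117 bp past the canonical start. At the canonical start itself PSMD9 had 4.33 and 5.25. The third chaperone gene, PSMD10, had no peak.

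PSMD14, PSMD10, PSMD6 and PSMA2 lay in stretches with almost no peaks of any kind. PSMD14 encodes the deubiquitinase that cuts ubiquitin off the substrate, and the nearest peak edge to its canonical start was 147430 bp away in replicate 1 and 147619 bp in replicate 2. For PSMD10, on chromosome X, these distances were 315134 bp and 436058 bp. PSMD6, of the lid, had a peak of fold 2.48 (percentile 6.06) in replicate 1, at chr3:64022830-64023245, with an intronic summit 255 bp past the start, and in replicate 2 the nearest peak was 55102 bp away. The peaks of PSMA2 and PSMD6 were thus near the bottom of the list of replicate 1, and absent from the shorter list of replicate 2.

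Counts of other peaks nearby showed the same contrast. Within 100 kb of the canonical start, leaving out the 3000 bp on either side, the 4 genes had 0 to 1 other peaks in each list. The 30 members with a promoter peak in both replicates had a median of 32 in replicate 1 (range 2 to 56) and 23.5 in replicate 2 (range 0 to 57). In replicate 1 the counts of the 4 and of the 30 did not overlap. In replicate 2 they did, since PSMA1 had no other peak within 100 kb and PSMB1 had 1, yet both held a promoter peak. Over protein-coding genes, those with a promoter peak in both replicates had medians of 27 and 18 other peaks, and the 8608 others had medians of 1 and 0, so the 4 members were not unusual in this.

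**Figure D4:**
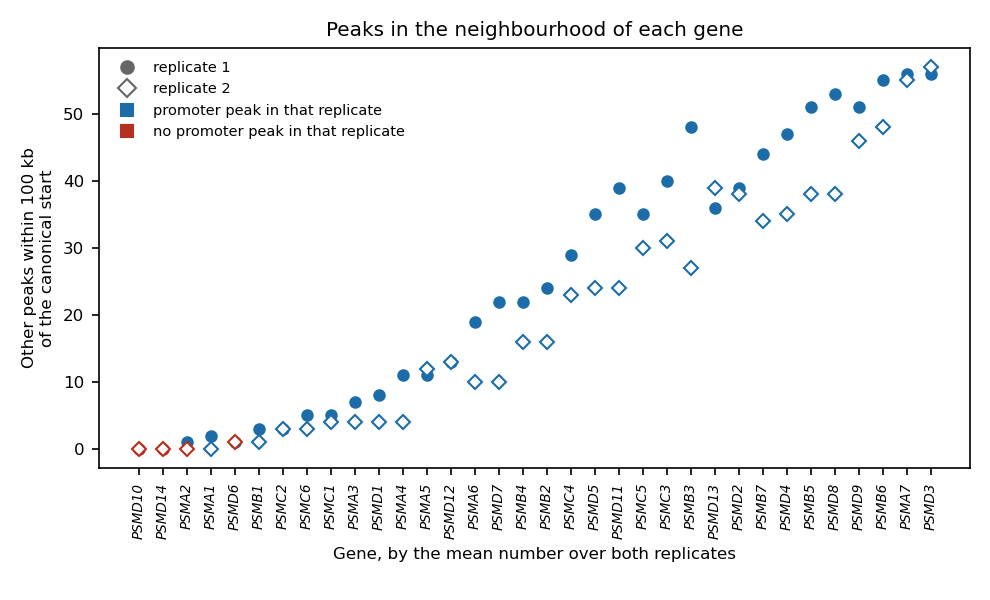
Number of other peaks within 100 kb of the canonical start (y axis) for each of the 34 genes (x axis, ordered by the mean of both replicates), with circles for replicate 1, diamonds for replicate 2 and red for a replicate in which the gene held no promoter peak. The red points are all at 0 or 1, and PSMA1 and PSMB1, which held a promoter peak in both replicates, come as low in replicate 2.

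The deposited fold and p together give the fragments at each summit and the background under them, called the control level here. At the strongest promoter peaks, members had a median of 55.5 fragments in replicate 1 (range 18 to 118) and 30.5 in replicate 2 (range 15 to 60), beside 51 and 28 over protein-coding genes. The median control levels were 7.01 and 4.46, beside 7.01 and 4.20. PSMC4 had the most fragments of the members, 118 and 60. PSMA5 had 72 and 44 fragments, more than the median member, over control levels of 20 and 11.1, the highest of the members. PSMA2 in replicate 1 had 44 fragments over 16.0. PSMB3 had 49 and 27 fragments, somewhat under the median, over control levels of 2.92 and 1.98. The low fold of PSMA5 and the high fold of PSMB3 thus went with their control levels and ran against their fragments. In PSMD1 and PSMD2 the reverse held. PSMD1 had folds of 8.30 and 6.32, with 91 and 37 fragments over control levels of 9.22 and 5.01, all above the member medians. PSMD2 had folds of 4.23 and 4.08, with 25 and 19 fragments over control levels of 4.68 and 3.90, all below them. How much of the order of the folds comes from the background was not tested. The absolute depth of the libraries is unknown.

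**Figure D5:**
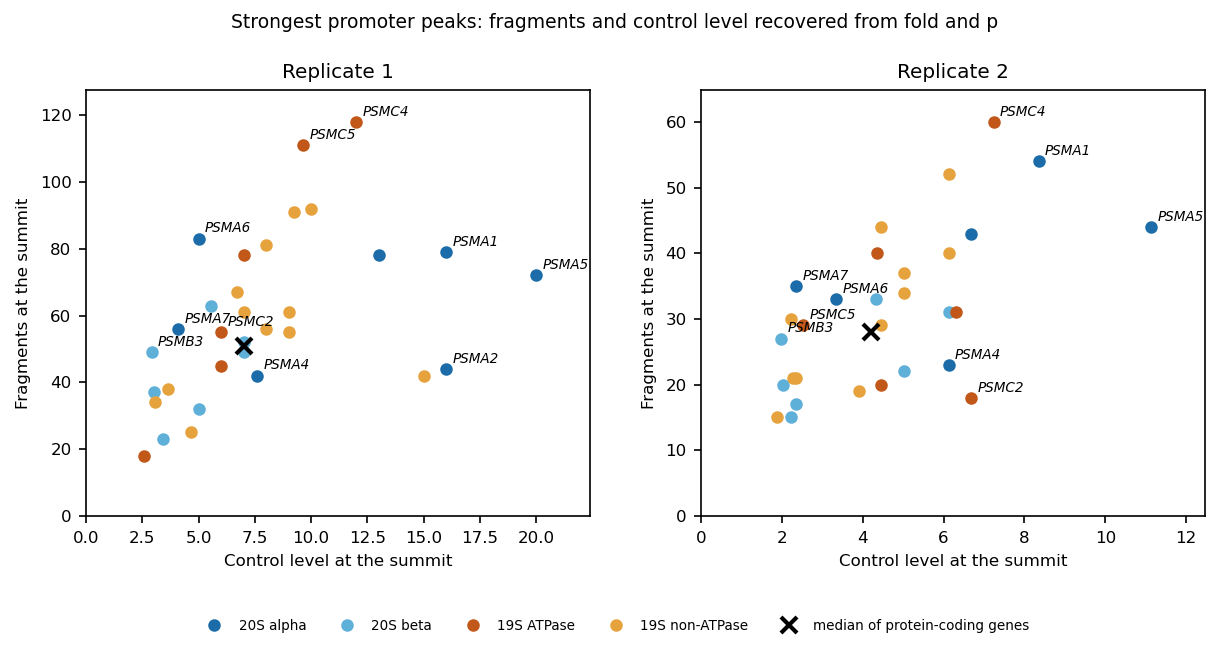
Fragments at the summit (y axis) against the control level at the summit (x axis) for the strongest promoter peak of each member, coloured by subunit class, with replicate 1 on the left and replicate 2 on the right. The crosses are the medians of protein-coding genes (51 fragments over 7.01 and 28 over 4.20), PSMA5 is at the far right of both panels at 20 and 11.1, and PSMB3 is near the left edge at 2.92 and 1.98.

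The core ranked below the regulatory particle in both full lists. The size of the gap depended on the list, on which peaks were taken and on the genes used as reference. The 20S core had a median fold percentile of 80.5 in replicate 1 (n = 14) and 81.6 in replicate 2 (n = 13). The 19S regulatory particle had 93.5 (n = 18) and 87.3 (n = 17). The core was lower by 13.0 and 5.66 percentile points, and the mean difference was -9.32 ± 5.18 (SD, n = 2). With peaks shared with another gene left out, the difference was -2.39, and with each list shortened to the 10000 peaks of highest −log10 p it was 2.15, so its sign was not fixed. Ranked among genes of the same GC decile with a promoter peak, the core had medians of 56.99 and 59.95 in replicates 1 and 2. The regulatory particle had 71.26 and 61.12, so in replicate 2 the core was only slightly lower. By fold percentile in the whole list, the alpha class of the core had medians of 66.1 and 82.5. The beta class had 86.6 and 76.6, so the order of these classes turned between replicates. The ATPases had 94.3 and 74.2 and the non-ATPase subunits 93.1 and 87.3, and their order turned as well.

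Some peaks lay in the promoter window of more than 1 gene, and the signal there cannot be assigned to either gene. The strongest promoter peak was shared with another protein-coding gene in 9 of 32 members (28.1%) in replicate 1 and 8 of 30 (26.7%) in replicate 2, beside 33.3% and 34.4% of protein-coding genes. With genes of all types, it was shared in 14 of 32 (43.8%) and 13 of 30 (43.3%), beside 53.9% and 53.6%. The members whose partners were not protein-coding were PSMA4, PSMD5, PSMD7, PSMD9 and PSMD11. With shared peaks left out, 21 of 34 members held a promoter peak in both replicates, beside 33.6% of protein-coding genes.

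Away from promoters, the share of members with a peak was below that of protein-coding genes in replicate 1 and about equal to it in replicate 2. A peak with its summit in the gene body but outside all promoters was found in 7 of 34 members (20.6%) in replicate 1 and 9 of 34 (26.5%) in replicate 2, beside 32.9% and 26.3% of protein-coding genes. In both replicates together the shares were 20.6% and 23.5%. The highest was in an intron of PSMB7, at chr9:124389456-124389870 and chr9:124389456-124390017, with folds of 8.11 and 9.09, with summits 25848 bp and 25701 bp past the canonical start, and above the folds of 5.77 and 3.83 at its promoter. PSMD3 was the only member whose gene end, the region where NUDT21 acts on pre-mRNA, held a peak outside promoters within 1000 bp. The peak had folds of 3.79 and 5.07 and was in the 3′ UTR in both replicates, and this 1 of 34 (2.94%) stood beside 7.38% and 5.53% of protein-coding genes. Peaks near a gene end but within 3000 bp of a transcript start counted as promoter peaks and were left out. Examples are those near the ends of PSMC5 (summits 4810 bp and 4775 bp past the canonical start) and PSMD11 (39321 bp and 39289 bp). The count therefore does not show that other gene ends lacked peaks.

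The other genes of the proteasome pathway were mostly occupied as well. Of a list of 24, 22 held a promoter peak in both replicates, beside 57.0% of protein-coding genes. The exceptions were PSMA8, the testis form of an alpha subunit, and SEM1, a small 19S subunit. This count was not compared with genes of like promoter GC. PSME2, a subunit of the interferon-induced activator, had folds of 20.3 and 21.4 (percentiles 99.8 and 99.9), above every member of the constitutive proteasome in both lists. Its partner PSME1 had 6.64 and 6.32. ADRM1, a ubiquitin receptor of the 19S particle, had 17.8 in replicate 1, also above every member, and 10.1 in replicate 2, below PSMA7. PSMB8 and PSMB9, catalytic subunits of the immunoproteasome that lie side by side on chromosome 6, shared a peak with folds of 10.3 and 8.11, and PSMB10, the remaining catalytic subunit of that form, had 9.56 and 8.78. The 3 immunoproteasome genes were thus each above the constitutive catalytic genes PSMB5, PSMB6 and PSMB7 in both lists. Whether the peaks of these other genes, PSME2 and ADRM1 included, also lay in the windows of further genes is not given here. Their folds may therefore not be theirs alone.

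Regulators and assembly factors held promoter peaks in both lists, with folds below those of PSME2 and ADRM1. NFE2L1 had folds of 7.39 and 7.86 and NFE2L2 of 6.36 and 7.91. DDI2, the protease that activates NFE2L1, had 5.80 and 5.43, and NGLY1, the enzyme that removes its sugars, had 3.21 and 3.44. The assembly factors ranged from 3.77 (PSMG4) to 9.04 (PSMG3) in replicate 1 and from 3.07 (PSMG2) to 7.40 (PSMG3) in replicate 2. Of the bound enzymes, the deubiquitinase USP14 had 4.76 and 3.99, the deubiquitinase UCHL5 had 3.94 and 2.39, and UBE3C had 5.57 and 5.55.

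The promoters of the members were searched on both strands, from 250 bases before to 50 after the RefSeq start, for 10 words, which may overlap each other. CCGGAAG, the core of ETS sites, was in 10 of 29 member promoters (34.5%), beside 12.8% of protein-coding promoters and 10.3% of all 35116 promoters. All 10 were of the regulatory particle (10 of 19, 52.6%), and none of the 10 core promoters had it. In 8 of these 10 the match began within 40 bases of the start. The position was not counted in other promoters that hold the word, so it may be as common there. PSMD6 and PSMD14, which lacked a promoter peak in a replicate or in both, were among them.

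CCAAT, the NF-Y word, was in 15 of 29 (51.7%), beside 34.7% of protein-coding promoters, and is marked in PSMB3, PSMA5, PSMD14 and PSMD10 above. TGACNNNGC, the antioxidant response element of NFE2L1 and NFE2L2, was in 7 of 29 (24.1%), beside 13.8%, in PSMB3, PSMC4, PSMD1, PSMD3, PSMD5, PSMD9 and PSMD12. The PSMB3 match began 104 bases before the start. GGGCGG, the SP/KLF word, was in 19 of 29 (65.5%), beside 56.3%. TGTA, the DNA form of the word that NUDT21 reads in RNA, was in 23 of 29 (79.3%), beside 52.3% of protein-coding promoters. Matches on the opposite strand or before the start do not place the word in RNA made from that start. The share was not compared with promoters of like GC. Of the 5 promoters shown, TGTA was present in PSMB3 and PSMD10. In PSMA5 it was on the opposite strand only, marked as TACA, and it was not found in PSMA4 and PSMD14.

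The remaining words were each in at most 4 of the 29 promoters. GCGCATGC (NRF1) was in 2 of 29 (6.90%, beside 3.74%), CACGTG (E-box) in 2 (6.90%, beside 8.34%), AAGATGGC (YY1) in 4 (13.8%, beside 3.53%) and TATAAA (the box bound by TBP) in 4 (13.8%, beside 9.47%). TGACGTCA (CREB/ATF) was in none of the 29, beside 2.26%. A match is only a run of letters, and the share of members was not tested against the background.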

How the data were processed

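Chromatin of 2 J.gamma1 samples was profiled by CUT&Tag. According to the study's methods and the labels, reads passed through fastp, were mapped on hg38 by Bowtie2 2.2.5 and were freed of duplicates, and peaks were called in each replicate with MACS3 3.0.1. A control library is not described there. The deposited lists give, for each peak, the fold enrichment at the summit (a ratio), −log10 p, −log10 q, the summit and a score. The deposited score repeats the −log10 q and was not used. The fold is relative to the background of its own list, so folds were ranked within a list. Read totals are unknown, so no interval is given.

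Promoters, features and starts came from GENCODE 44 on hg38 (Python 3.11.15, pandas 2.3.3). A control level and a whole number of fragments were solved from fold and −log10 p, with the pileup of replicate 1 scaled by 0.921, and 99.4% and 100% of the strongest promoter peaks had a solution. The steps were tested on simulated data. Nothing was tested across the 2 samples. Full values were given for members without a promoter peak, the 4 highest and 4 lowest, those with non-overlapping or shared strongest peaks, and PSMB5, PSMB6, PSMB7, PSMD4 and PSMD14. Alternatives were other windows, starts, peak filters, rankings and single replicates. The members and lists were chosen with earlier results of these data known.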

Additional observations from a re-analysis of the deposited data

How the results depend on the processing

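Of 71 alternative values, 49 stayed within the spread between replicates or within 1.5 times the count. With each list shortened to its 10000 peaks of highest −log10 p, 14 members, 12 other pathway genes, 24.6% of protein-coding genes and 24.8% of genes of like GC held a promoter peak in both replicates, the median fold percentile was 57.0, the median rank of the members within their GC decile turned from 64.0 to 47.3, under the middle of 50, the distance 147.5 bp, and the difference between core and regulatory particle turned to 2.15. At a −log10 q of at least 5, the like-GC share was 52.6%, the percentile 81.5 and the difference -14.5. Without shared peaks, 33.6% of protein-coding genes, 34.3% of like GC, a percentile of 79.97 and a difference of -2.39 were found. With the peak nearest to the canonical start, the percentile was 81.4, the distance 107.5 bp and the difference -17.4. The distance was 182 bp with canonical starts and 131 bp with promoters within 1000 bp.

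With each replicate left out in turn, members with a promoter peak were 30 to 32, protein-coding genes 57.9% to 69.8%, and genes of like GC 62.4% to 74.7%. No paired analysis was possible because the 2 samples form a single group. The cause of these shifts was not tested. Fewer peaks are listed in replicate 2, so a missing peak there does not show that NUDT21 was absent.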
